A study of Mus musculus with 9 samples.

Results

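Chemokine receptors are membrane proteins that steer white blood cells along gradients of small secreted proteins, the chemokines. Transcripts of 9 such genes, Cxcr1, Cxcr2, Cxcr3, Cxcr4, Ccr1, Ccr2, Ccr7, Ccrl2 and Cx3cr1, were followed in lung neutrophils of mice with and without breast cancer metastasis. The members were found by gene symbol, and all 9 of 9 were among the 18325 genes with values and among the 14108 genes that passed the filter on low counts. Bulk RNA-seq was available for 9 libraries in 3 groups of 3. Ly6Ghi and Ly6Glow neutrophils came from lungs of female BALB/c mice at the macrometastatic (MACRO) stage, after 4T1-LM3 mammary tumor cells had been injected into the fat pad. The NL group held Ly6Ghi neutrophils from lungs of female BALB/c mice with no injection named in the labels. According to the methods, mice were bought at an age of 6 to 8 weeks and neutrophils were sorted as CD45+ cells with high or low surface Ly6g. The labels number the replicates of each group as separate biosamples but do not say whether animals were pooled, so p-values measure the spread between these samples only. The description field of the NL libraries names a Ly6Ghi group and does not mention normal lung, so that the NL assignment rests on their titles and on the treatment field.

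Most chemokine receptors couple to inhibitory G proteins, whose beta-gamma subunits drive phosphoinositide 3-kinase and Rac signalling and so cell movement, and receptor kinases and arrestins then switch the receptor off. In neutrophils, CXCR2 and CXCR1 bind the CXC chemokines that draw the cells out of bone marrow and into inflamed tissue, whereas CXCR4 binds CXCL12 and holds or returns neutrophils to the marrow. CCR1 binds several inflammatory CC chemokines, CCR2 is the main receptor of inflammatory monocytes, CCR7 guides dendritic cells and T cells to lymph nodes, CXCR3 marks activated T cells, and CX3CR1 marks patrolling monocytes and many macrophages. CCRL2 is an atypical receptor that binds chemerin and does not signal through G proteins.

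Library totals were 15267177 to 17841807 estimated counts. Replicate pairs differed by a chi-square per degree of freedom of 1.41 to 2.5 outside the 2 pairs that held NL replicate 2, which gave 5.3 and 4.05, and leaving that library out changed no call of the 9 receptors. The 9 neutrophil markers summed to 72409 to 74549 CPM (counts scaled to library size) in Ly6Ghi, 76626 to 78551 in Ly6Glow and 18605 to 18864 in NL. Markers of other cells were present in every group and none was at 0. Summed endothelial markers were 844 to 919 CPM in NL against 132 to 135 in Ly6Ghi and 162 to 171 in Ly6Glow, and epithelial or tumor cell markers, led by Sftpc, were 778 to 868 CPM in NL against 57.2 to 61.6 in the other groups. Alveolar macrophage markers, led by Chil3, were 1562 to 1621 CPM in Ly6Ghi, 349.9 to 371 in Ly6Glow and 1958 to 1991 in NL. Chil3 alone was 1274 CPM in Ly6Ghi and 964 in NL, and 7 of the 9 alveolar macrophage markers were called lower in Ly6Ghi than in NL (median log2 fold change -1.95), among them Marco at 0.829 against 15.8 CPM. Platelet markers lay between 8.28 and 13.4 CPM in all libraries. In bulk libraries, fewer cells of a type and less RNA per cell cannot be told apart. Ly6g mRNA, whose protein was used for the sort, was 374 CPM in Ly6Ghi and 394 CPM in Ly6Glow and was not called (log2 fold change 0.08 ± 0.033 SE, adjusted p = 0.0577). On the FPKM scale the order was the opposite, with 396 to 417 FPKM in Ly6Ghi and 358 to 373 in Ly6Glow, so that this transcript did not check the labels of the sorted groups.

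Levels were compared between genes on the FPKM scale, which divides by transcript length. In both macrometastatic groups Cxcr2 was the most abundant of the 9 receptor transcripts. It reached 544 ± 5.16 FPKM (SD, n = 3) in Ly6Ghi and 731 ± 21 FPKM in Ly6Glow. Ccr1 followed with 353 ± 1.73 and 466 ± 20.5 FPKM, then Ccrl2 with 222 ± 3.02 and 292 ± 4.32 FPKM, and Cxcr4 with 107 ± 1.4 and 111 ± 1.22 FPKM. Cxcr1, at 38.9 ± 2.3 and 105 ± 3.77 FPKM, stood above Ccr2, at 28.9 ± 1.13 and 16.8 ± 1.17 FPKM. Ccr7, Cx3cr1 and Cxcr3 lay below 2 FPKM in all 6 macrometastatic libraries. Neighbours in this order did not overlap, except that the libraries of Cx3cr1 and Cxcr3 overlapped in both groups.

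In NL the order was different at the top. Ccr1 led with 382 ± 28.6 FPKM, followed by Ccrl2 with 298 ± 2.76 FPKM and Cxcr2 with 226 ± 7.35 FPKM, and none of these neighbours overlapped. Cxcr4 came next with 125 ± 5.76 FPKM. Cxcr1 at 11.1 ± 1.33 FPKM and Ccr7 at 10.2 ± 0.374 FPKM overlapped between libraries. As a share of the FPKM summed over the 9 receptors, Cxcr2 made up 41.6% to 42.2% in Ly6Ghi and 42.2% to 42.7% in Ly6Glow, ranges that touched, and 20.9% to 21.1% in NL. Ccrl2 held 16.3% to 17.4% in the macrometastatic libraries and 26.6% to 28.4% in NL. The share of Cxcr1 was 2.86% to 3.19% in Ly6Ghi, 5.9% to 6.41% in Ly6Glow and 0.956% to 1.19% in NL.

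**Figure D1:**
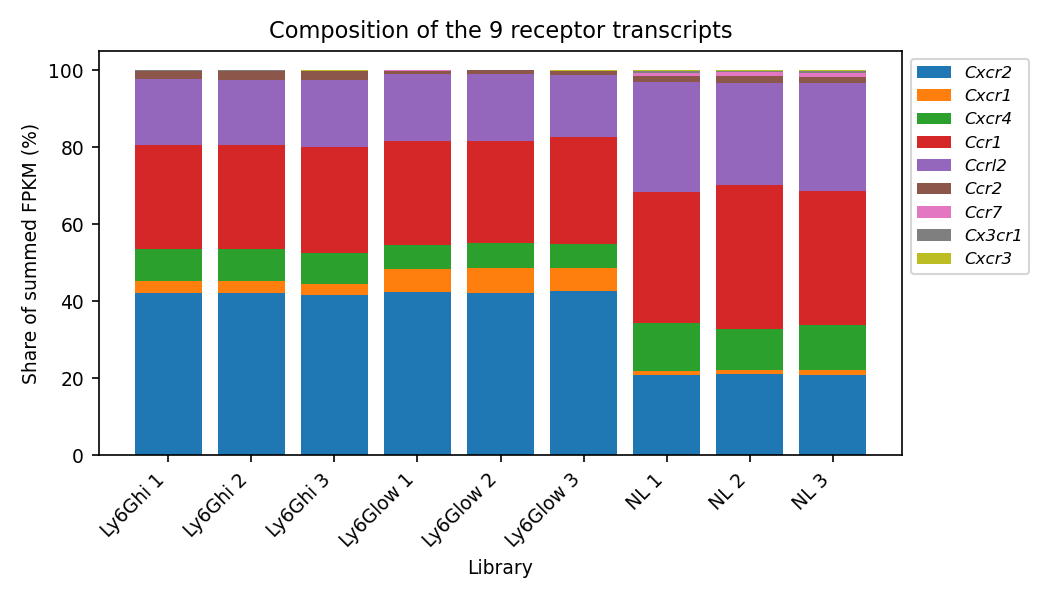
Share of each receptor in the FPKM summed over the 9 receptors (y axis, percent) in each of the 9 libraries (x axis). Stacked bars show that Cxcr2 took 41.6% to 42.7% in the macrometastatic libraries and 20.9% to 21.1% in NL, where Ccr1 took 34.2% to 37.4%.

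Differences between groups were tested on counts with edgeR. A call required an adjusted p no greater than 0.05 together with a log2 fold change beyond 0.58 in either direction. Between Ly6Glow and Ly6Ghi, 5 of the 9 receptors were called. Of these, 4 (Cxcr1, Cxcr2, Ccr1 and Ccrl2) were higher in Ly6Glow, against 9.29% of all tested genes, and 1 (Ccr7) was lower, against 15.9%. The median log2 fold change was 0.28 over the 9 receptors and -0.04 over all tested genes. Between Ly6Ghi and NL, 6 receptors were called. Cxcr1, Cxcr2 and Ccr2 were higher in Ly6Ghi (background 26.3%), and Cxcr3, Ccr7 and Cx3cr1 were lower (background 36.6%). The medians were 0.24 over the receptors and -0.09 over all genes. Between Ly6Glow and NL, 8 receptors were called, 5 higher (Cxcr1, Cxcr2, Ccr1, Ccr2 and Ccrl2, background 28.7%) and 3 lower (Cxcr3, Ccr7 and Cx3cr1, background 40.8%). The medians were 0.61 and -0.16. The 2 comparisons with NL share the NL libraries, and each macrometastatic group enters 2 comparisons.

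The choice of scale bore on the comparisons with NL. Scaling by trimmed means (TMM) put the median log2 fold change of all tested genes at -0.04, -0.09 and -0.16 in the order above, and log2(FPKM + 1) put it at -0.13, -0.32 and -0.49. On the FPKM scale the directions against NL turned for Cxcr4 in both comparisons, for Ccr1 and Ccrl2 in Ly6Ghi, and for Ccr2 and Ccrl2 in Ly6Glow. Relative to the median of all genes, all of these but Ccrl2 in Ly6Ghi lay above 0 on both scales. Against NL the centred difference of Cxcr4 was 0.33 with TMM and 0.10 on the FPKM scale in Ly6Ghi, and 0.68 and 0.32 in Ly6Glow. That of Ccr1 in Ly6Ghi was 0.44 and 0.21, and in Ly6Glow that of Ccr2 was 0.76 and 0.41 and that of Ccrl2 was 0.84 and 0.46. Directions of Cxcr1, Cxcr2, Cxcr3, Ccr7 and Cx3cr1 against NL were alike on both scales. Cxcr1 was the one receptor called higher in Ly6Glow than in Ly6Ghi on the FPKM scale. There Cxcr2, Ccr1 and Ccrl2 had log2 fold changes of 0.42, 0.40 and 0.39, below the fold threshold.

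**Figure D2:**
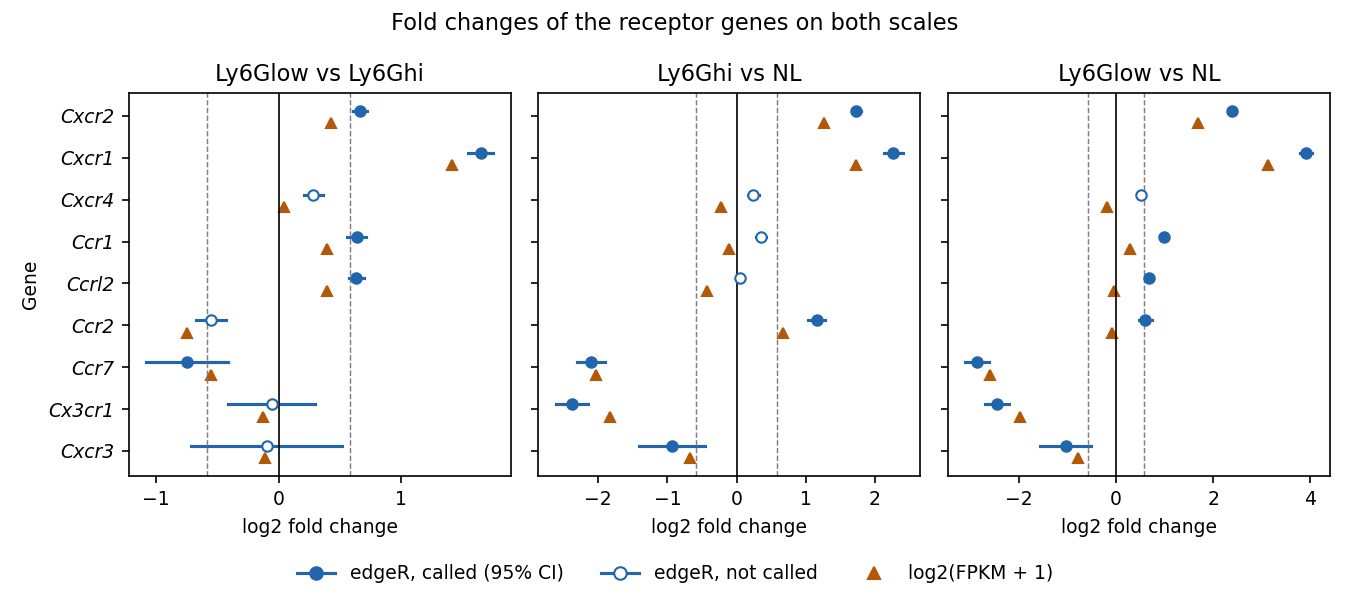
Log2 fold change (x axis) of the 9 receptors (y axis) in the 3 comparisons. Circles show edgeR estimates with 95% confidence intervals, filled where called, triangles show log2(FPKM + 1) differences, and dashed lines mark 0.58 in either direction. Triangles of Cxcr4 lie below 0 in both comparisons with NL, where the circles lie at 0.24 and 0.53.

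Cxcr2 and Cxcr1 had the same order of groups, NL, then Ly6Ghi, then Ly6Glow, with no overlap between any libraries of different groups. Cxcr2 was at 1731, 1723 and 1694 CPM in the Ly6Ghi libraries, at 2664, 2675 and 2799 CPM in Ly6Glow, and at 509, 529.6 and 509 CPM in NL. Every Ly6Glow library thus lay above every Ly6Ghi library, and NL was lowest. It was 1.58-fold higher in Ly6Glow than in Ly6Ghi (log2 fold change 0.66 ± 0.029 SE, adjusted p = 2.74e-14). It was 3.33-fold higher in Ly6Ghi than in NL (log2 fold change 1.73 ± 0.03, adjusted p = 5.03e-22) and 5.26-fold higher in Ly6Glow than in NL (adjusted p = 3.4e-24). Of the 9 neutrophil markers, 8 were called higher in Ly6Ghi than in NL (median log2 fold change 1.65), 9 in Ly6Glow than in NL (median 2.02) and 4 in Ly6Glow than in Ly6Ghi (median 0.24, with 3 higher and 1 lower on the FPKM scale). The part of neutrophil content in the Cxcr2 and Cxcr1 differences was not tested.

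Cxcr1, the close relative of Cxcr2, had the larger fold changes. It was at 51.4, 53.3 and 48.8 CPM in Ly6Ghi, 155, 165 and 161 CPM in Ly6Glow, and 9.88, 9.81 and 12.2 CPM in NL. It was 3.14-fold higher in Ly6Glow than in Ly6Ghi (log2 fold change 1.65 ± 0.053, adjusted p = 1.18e-16) and 4.81-fold higher in Ly6Ghi than in NL (log2 fold change 2.27 ± 0.07, adjusted p = 5.63e-18). Against NL it was 15.1-fold higher in Ly6Glow (adjusted p = 1.06e-22). Cxcr1 was the one receptor past a log2 fold change of 1 between Ly6Glow and Ly6Ghi. Its level per length stayed below that of Cxcr2 in every group.

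**Figure D3:**
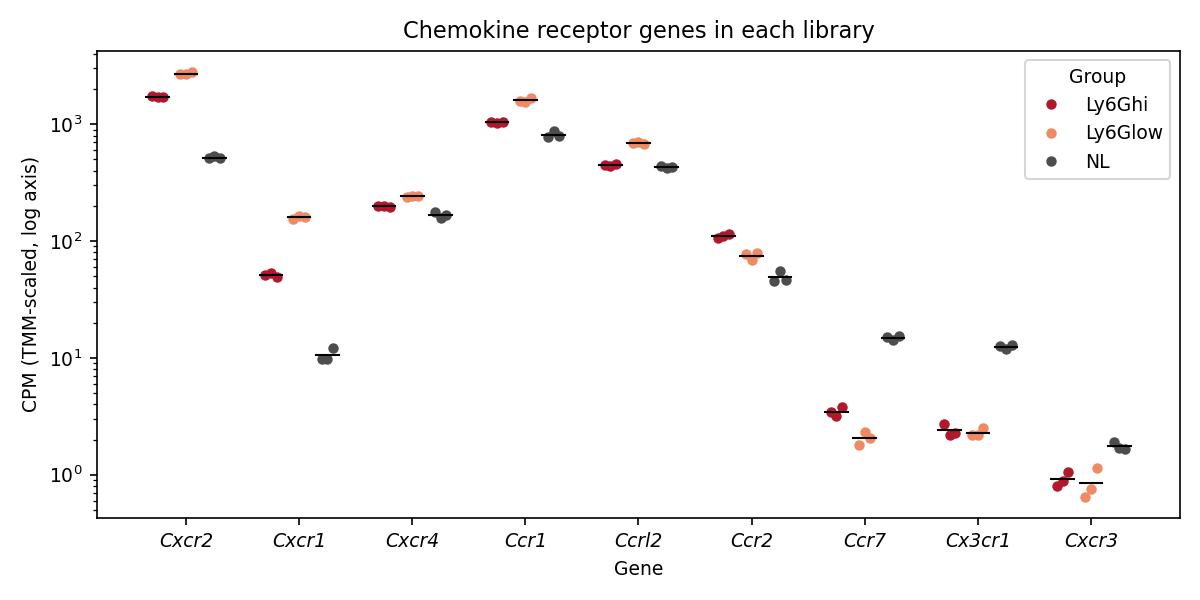
CPM scaled by TMM (y axis, log scale) of the 9 receptors (x axis) in each of the 9 libraries. Points are libraries and black lines are group means, and Cxcr2 and Cxcr1 are lowest in NL and highest in Ly6Glow while Ccr7 and Cx3cr1 are highest in NL.

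Both genes lie on mouse chromosome 1 in convergent orientation (GENCODE M21, GRCm38). Cxcr2 spans chr1:74153989-74161246 on the plus strand and Cxcr1 spans chr1:74191785-74194631 on the minus strand, with 30538 bp and no annotated gene between them. Cxcr4 lies on the same chromosome at chr1:128588199-128592293 on the minus strand. The 250 bases before the start of these 3 genes are shown because Cxcr2 and Cxcr1 were called higher together in all 3 comparisons while Cxcr4 was not called. They were taken from RefSeq (GRCm38.p6), written in transcript direction, with capitals at matches on either strand to GGAAGT (ETS factors such as PU.1), TTNNGNAA (C/EBP factors) and ACGTG (hypoxia-inducible factors).
Cxcr2, chr1:74153744-74153993, plus strand: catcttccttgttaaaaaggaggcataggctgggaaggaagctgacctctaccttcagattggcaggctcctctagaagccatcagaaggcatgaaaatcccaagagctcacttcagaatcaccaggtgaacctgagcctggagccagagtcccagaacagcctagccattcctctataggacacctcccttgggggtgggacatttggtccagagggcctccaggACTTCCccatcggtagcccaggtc
Cxcr1, chr1:74194632-74194881, minus strand: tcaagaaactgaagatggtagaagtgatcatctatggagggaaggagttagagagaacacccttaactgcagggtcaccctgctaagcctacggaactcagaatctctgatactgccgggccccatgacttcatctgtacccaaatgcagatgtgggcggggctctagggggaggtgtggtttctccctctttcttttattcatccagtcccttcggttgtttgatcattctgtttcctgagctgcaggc
Cxcr4, chr1:128592300-128592549, minus strand: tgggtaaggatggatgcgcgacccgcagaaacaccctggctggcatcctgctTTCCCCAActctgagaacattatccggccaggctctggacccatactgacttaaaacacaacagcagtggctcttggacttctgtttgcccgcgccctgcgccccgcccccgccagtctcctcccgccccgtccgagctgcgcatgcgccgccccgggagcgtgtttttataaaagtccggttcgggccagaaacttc
The Cxcr2 window held 1 ETS match, which began 24 bases before the start, and the Cxcr4 window held 1 C/EBP match, which began 198 bases before it. The Cxcr1 window held none of these letters. Windows were found for 8 of the 9 receptors, all but Ccr7. The ETS letters were in 2 of these 8 genes (Cxcr2 and Cxcr3), those of C/EBP in 4 (Cxcr3, Cxcr4, Ccr1 and Ccr2) and those of the hypoxia motif in 1 (Ccrl2). Of all 32851 mouse promoter windows of this length, 19.7%, 36.8% and 16.6% held them. These shares count windows, whereas the receptors were counted as genes, and a gene can have several windows (Ccrl2 had 3).

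Cxcr4 differed less between groups than Cxcr2 and was not called in any comparison. It was at 201, 199.8 and 196 CPM in Ly6Ghi, 239, 245 and 242 CPM in Ly6Glow, and 177, 159 and 168 CPM in NL. The groups did not overlap on this scale, but the differences were small. The log2 fold change was 0.28 ± 0.039 between Ly6Glow and Ly6Ghi (adjusted p = 2.08e-06), 0.24 ± 0.039 between Ly6Ghi and NL (adjusted p = 5.94e-06) and 0.53 ± 0.039 between Ly6Glow and NL (adjusted p = 2.87e-11), each below the fold threshold. The differences from NL were -0.22 for Ly6Ghi and -0.17 for Ly6Glow on the FPKM scale. With DESeq2 size factors, Cxcr4 passed the fold threshold in Ly6Glow against NL at 0.62.

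The ratio of Cxcr2 to Cxcr4 within a library does not depend on how libraries are scaled. It was 5.07, 5.09 and 5.11 in the Ly6Ghi libraries, 6.58, 6.43 and 6.82 in Ly6Glow, and 1.69, 1.97 and 1.78 in NL. The 3 groups did not overlap. The mean log2 ratio was 2.35 ± 0.0055 (SD, n = 3) in Ly6Ghi, 2.72 ± 0.042 in Ly6Glow and 0.86 ± 0.11 in NL. The ratio was thus 1.3-fold higher in Ly6Glow than in Ly6Ghi (difference 0.38), 2.81-fold higher in Ly6Ghi than in NL (difference 1.49) and 3.65-fold higher in Ly6Glow than in NL (difference 1.87). Each comparison gave p = 0.1 in the two-sided exact permutation test, the smallest value that 3 against 3 libraries allow, so that this test could not pass 0.05. The ratio is free of library scaling but can still change with the mix of cells in a library. Neutrophil markers summed to 18605 to 18864 CPM in NL and to at least 72409 CPM in the other groups. The part of other cells in the ratio, or in Cxcr4 alone, was not tested.

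**Figure D4:**
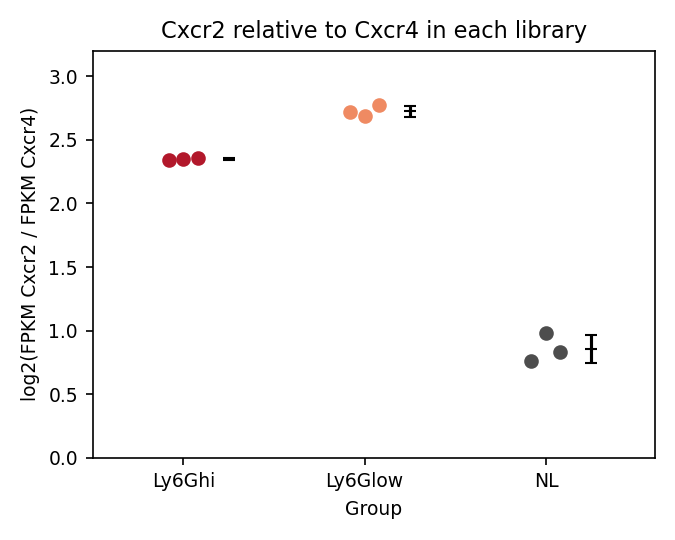
Log2 ratio of Cxcr2 FPKM to Cxcr4 FPKM (y axis) in each library of the 3 groups (x axis). Points are libraries and bars beside them give mean and SD, with means of 2.35 in Ly6Ghi, 2.72 in Ly6Glow and 0.86 in NL.

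Ccr1 and Ccrl2 were also higher in Ly6Glow than in Ly6Ghi. Ccr1, on chromosome 9 (chr9:123962124-123968692), was at 1035, 1033 and 1039 CPM in Ly6Ghi, 1579, 1564 and 1689.6 CPM in Ly6Glow, and 774, 872 and 791 CPM in NL. All Ly6Glow libraries stood above all Ly6Ghi libraries, and these above NL. The 1.56-fold difference between Ly6Glow and Ly6Ghi was called (log2 fold change 0.64 ± 0.039, adjusted p = 5.95e-12), as was the 1.98-fold difference between Ly6Glow and NL (log2 fold change 0.99, adjusted p = 3.92e-16). Ly6Ghi against NL was 0.35 ± 0.039 on the log2 scale (adjusted p = 3.02e-08) and not called. On the FPKM scale it was -0.11, and the call of Ly6Glow against NL was lost at 0.29.

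Ccrl2, at chr9:111054486-111057519, was at 449, 441 and 453 CPM in Ly6Ghi, 692, 706 and 682 CPM in Ly6Glow, and 440.3, 421 and 434 CPM in NL. Ly6Glow stood apart, while Ly6Ghi and NL lay side by side without overlapping. It was 1.55-fold higher in Ly6Glow than in Ly6Ghi (log2 fold change 0.63 ± 0.031, adjusted p = 1.37e-13) and 1.61-fold higher in Ly6Glow than in NL (adjusted p = 4e-15). The latter call was lost with upper-quartile factors (0.49) and on the FPKM scale. On the FPKM scale the libraries overlapped and the difference was -0.03. Between Ly6Ghi and NL the log2 fold change was 0.05 (95% confidence interval -0.01 to 0.11, adjusted p = 0.12), and the FPKM scale gave -0.42. Relative to the median of all genes, the difference was 0.14 with TMM and -0.1 on the FPKM scale.

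Ccr2, at chr9:124101950-124113557, had another order of groups, with the highest level in Ly6Ghi. It was at 106, 111 and 114 CPM in Ly6Ghi, 77.5, 69.4 and 78.7 CPM in Ly6Glow, and 45.7, 55.6 and 46.8 CPM in NL. The 3 groups did not overlap on this scale. It was 2.23-fold higher in Ly6Ghi than in NL (log2 fold change 1.16 ± 0.061, adjusted p = 7.96e-14). The difference between Ly6Glow and Ly6Ghi was -0.55 ± 0.062 (adjusted p = 1.09e-07), just short of the fold threshold, and it passed it without Ly6Ghi replicate 1 (-0.58), without Ly6Glow replicate 3 (-0.59) and on the FPKM scale (-0.75). Ccr2 was called higher in Ly6Glow than in NL (0.61 ± 0.065, adjusted p = 1.48e-08). This call was lost without Ly6Glow replicate 3 (0.58), NL replicate 1 (0.55) or NL replicate 3 (0.57). It was also lost with upper-quartile factors (0.42), and the FPKM difference was -0.08. Summed monocyte and macrophage markers, led by Csf1r, were 587 to 601 CPM in Ly6Ghi, 624 to 653 in Ly6Glow and 781 to 851 in NL, and basophil and mast cell markers were 28.6 to 30.6, 16.1 to 18.1 and 3.6 to 3.86 CPM. The part of these cells in the Ccr2 result was not tested.

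Ccr7, Cx3cr1 and Cxcr3 were scarce and were lower in both macrometastatic groups than in NL. Ccr7, on chromosome 11 (chr11:99144196-99155077), was at 3.44, 3.19 and 3.78 CPM in Ly6Ghi, 1.79, 2.33 and 2.06 CPM in Ly6Glow, and 15, 14.3 and 15.5 CPM in NL. NL was highest and Ly6Glow lowest, with no overlap. It was 4.3-fold lower in Ly6Ghi than in NL (log2 fold change -2.11 ± 0.11, adjusted p = 3.39e-14) and 7.21-fold lower in Ly6Glow than in NL (log2 fold change -2.85 ± 0.13, adjusted p = 2.99e-15). It was 1.68-fold lower in Ly6Glow than in Ly6Ghi (log2 fold change -0.74 ± 0.17, adjusted p = 0.000816), on 22 to 31 estimated counts per library in Ly6Glow and 54 to 61 in Ly6Ghi. This call was lost with log2(FPKM + 1), at -0.55, and held with log2(FPKM + 0.1), at -0.93. Summed dendritic cell markers were 20.9 to 21.7 CPM in Ly6Ghi, 19.1 to 21.6 in Ly6Glow and 65.9 to 69.3 in NL, and all 8 of them were called lower in each macrometastatic group than in NL (7 of 8 for Ly6Ghi on the FPKM scale). Their part in the Ccr7 difference was not tested.

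Cx3cr1, at chr9:119901616-120069879, was at 2.71, 2.18 and 2.29 CPM in Ly6Ghi, 2.19, 2.18 and 2.52 CPM in Ly6Glow, and 12.7, 11.9 and 12.9 CPM in NL. Only the NL libraries stood apart on this scale. It was 5.22-fold lower in Ly6Ghi (log2 fold change -2.38 ± 0.12, adjusted p = 2.88e-14) and 5.43-fold lower in Ly6Glow (log2 fold change -2.44 ± 0.13, adjusted p = 6.33e-14) than in NL. Between Ly6Glow and Ly6Ghi the log2 fold change was -0.06 with a 95% confidence interval of -0.41 to 0.3 (adjusted p = 0.831), and its sign turned with DESeq2 size factors and without Ly6Ghi replicate 1. C1qa, a complement gene of macrophages, was 13 CPM in Ly6Ghi, 9.19 CPM in Ly6Glow and 58.6 CPM in NL, and 6 of 10 monocyte and macrophage markers were called lower in each macrometastatic group than in NL. Whether these cells account for the Cx3cr1 difference was not tested.

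Cxcr3, on chromosome X (chrX:101731535-101734269), was the rarest of the 9, with 8 to 17 estimated counts in the macrometastatic libraries and 37 to 42 in NL. It was at 0.8, 0.885 and 1.05 CPM in Ly6Ghi, 0.65, 0.753 and 1.14 CPM in Ly6Glow, and 1.89, 1.69 and 1.67 CPM in NL. The macrometastatic groups overlapped each other and lay below NL. It was 1.91-fold lower in Ly6Ghi than in NL (log2 fold change -0.93 ± 0.24, adjusted p = 0.00138) and 2.04-fold lower in Ly6Glow (log2 fold change -1.03 ± 0.26, adjusted p = 0.00114). The log2 fold change between Ly6Glow and Ly6Ghi was -0.10 with a 95% confidence interval of -0.71 to 0.52 (adjusted p = 0.822), so that no difference was detectable at this depth. T and NK cell markers summed to 50.6 to 53.2 CPM in Ly6Ghi, 35.6 to 36 in Ly6Glow and 83.1 to 86.4 in NL, and their part in the Cxcr3 difference was not tested.

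Of 15 other chemokine receptors, 13 passed the filter, and most were rare and lower in the macrometastatic groups. In Ly6Ghi 9 of the 13 were called lower than in NL, with 1 higher, against 36.6% and 26.3% of all tested genes. In Ly6Glow 9 were lower and 2 higher, against 40.8% and 28.7%. The medians of the 13 were -1.32 and -1.27, and both stayed below that of all genes with each scaling tried. Ackr3 and Ackr2, atypical receptors that take up chemokines without G protein signalling, were at 14.2 and 15.9 CPM in NL and at most at 3.12 CPM in the other groups. Endothelial markers were also highest in NL (844 to 919 CPM, at most 171 in the other groups), whereas basophil and mast cell markers were lowest there. The part of other cells in the receptors lower than in NL was not tested. Ccr3, the eotaxin receptor of eosinophils, went the other way. It was at 15.8 ± 1.09 CPM (SD, n = 3) in Ly6Ghi, 3.72 ± 0.431 in Ly6Glow and 1.09 ± 0.415 in NL, higher in Ly6Ghi than in NL (log2 fold change 3.86, adjusted p = 7.29e-16) and lower in Ly6Glow than in Ly6Ghi (log2 fold change -2.09, adjusted p = 2.74e-11). Summed eosinophil markers were 111 to 115 CPM in Ly6Ghi, 4.87 to 5.57 in Ly6Glow and 41.1 to 45.1 in NL. Ear1 made up most of the NL sum at 40.7 CPM, while Prg2 was 29.4 CPM in Ly6Ghi and 0.226 in NL and Ear6 was 31.9 and 0.286. Of the 5 markers, 4 were called higher in Ly6Ghi than in NL, and their part in the Ccr3 difference was not tested. Cxcr5, the B cell follicle receptor, was highest in Ly6Glow at 24.7 CPM, against 11.9 in Ly6Ghi and 8.55 in NL (log2 fold change 1.06 against Ly6Ghi, adjusted p = 8.59e-10). Summed B cell markers were 28.1 to 30 CPM in Ly6Glow, 46.3 to 47.3 in Ly6Ghi and 27.4 to 29.9 in NL. Their part in the Cxcr5 difference was not tested.

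Among 17 tested ligands of the 9 receptors, 3 were called higher and 1 lower in Ly6Glow than in Ly6Ghi (all tested genes, 9.29% and 15.9%). The higher ones were Cxcl2 and Cxcl3, which act on CXCR2, and Ccl3, which acts on CCR1. Cxcl2, the most abundant ligand in each group, was at 3859 ± 232 CPM in Ly6Glow, 1664 ± 12.3 in Ly6Ghi and 1929 ± 72.6 in NL (log2 fold change 1.21 ± 0.037 for Ly6Glow against Ly6Ghi, adjusted p = 5.11e-17). Cxcl3 was at 190.4 CPM in Ly6Glow and 79.6 in Ly6Ghi (log2 fold change 1.26, adjusted p = 5.98e-16). The lower one was Cx3cl1, ligand of CX3CR1, at 0.96 against 1.56 CPM (log2 fold change -0.70, adjusted p = 0.0312). Against NL, 13 of the 17 were called lower in each macrometastatic group. Of all tested genes, 36.6% in Ly6Ghi and 40.8% in Ly6Glow were called lower, and 26.3% and 28.7% higher. In Ly6Ghi 0 of the 17 ligands were higher with edgeR, with DESeq2 and at an unadjusted p under 0.05. In Ly6Glow 2 (Cxcl2 and Ccl3) were called higher with edgeR, and 3 with DESeq2 size factors. On the FPKM scale neither was called higher in Ly6Glow, and 16 and 14 were called lower. Cxcl9, a ligand of CXCR3, was at 70.1 CPM in NL and 3.47 in Ly6Ghi (log2 fold change -4.34, adjusted p = 2.37e-21), and Ccl21a, a ligand of CCR7, was at 18.6 and 1.01 CPM (log2 fold change -4.19, adjusted p = 2.78e-16). Summed endothelial, dendritic cell, and monocyte and macrophage markers were also highest in NL, at 844 to 919, 65.9 to 69.3 and 781 to 851 CPM. Basophil and mast cell markers were lowest there, at 3.6 to 3.86 CPM. The part of other cells in the lower ligands was not tested.

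Of the 16 signalling genes downstream of the receptors, 0 were called in either direction between Ly6Glow and Ly6Ghi with edgeR, and 0 with DESeq2. Of all tested genes, 9.29% were called higher and 15.9% lower with edgeR. At an unadjusted p under 0.05, 7 of the 16 were higher and 4 lower in Ly6Glow, and 2 were called lower on the FPKM scale. Gnai2, an inhibitory G protein subunit, was at 1830.2 CPM in Ly6Glow and 1813 CPM in Ly6Ghi. Against NL, 12 of 16 were called higher in Ly6Ghi (median 0.81) and 11 in Ly6Glow (median 1.03), where 26.3% and 28.7% of all tested genes were. The neutrophil markers were higher in the same comparisons, with medians of 1.65 and 2.02. With edgeR 0 were lower in either comparison, as with DESeq2, on the FPKM scale and at an unadjusted p under 0.05. On the FPKM scale 5 and 2 were called higher. Rac2, the Rac GTPase of blood cells, was at 1802 ± 37.9 CPM in Ly6Ghi, 1967 ± 64.6 in Ly6Glow and 536 ± 38.3 in NL (log2 fold changes against NL 1.75 and 1.87). Pik3cg, the kinase driven by beta-gamma subunits, was at 128 CPM in Ly6Ghi and 49.7 in NL (log2 fold change 1.36, adjusted p = 4.39e-18). Fgr, a Src family kinase, was at 956 CPM in Ly6Glow and 359 in NL (log2 fold change 1.41, adjusted p = 2.1e-20).

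Of 13 tested genes that switch receptors off, 4 were called lower and 0 higher in Ly6Glow than in Ly6Ghi with edgeR. Among all tested genes the shares were 15.9% and 9.29%. At an unadjusted p under 0.05, 2 of the 13 were higher, and DESeq2 and the FPKM scale also called 0 higher. The 4 called lower were Grk3, a receptor kinase, and Rgs1, Rgs16 and Rgs18, which speed up GTP hydrolysis by G protein alpha subunits. Rgs1 was at 9.67 ± 0.799 CPM in Ly6Glow and 20.9 ± 1.89 in Ly6Ghi (log2 fold change -1.11, adjusted p = 5.4e-09), and Grk3 was at 7.61 ± 1.75 and 13.7 ± 0.471 CPM (log2 fold change -0.86, adjusted p = 8.99e-07). Against NL, 8 were higher and 4 lower in Ly6Ghi, where 26.3% of all tested genes were higher. In Ly6Glow 8 were higher and 3 lower, where 28.7% of all tested genes were higher. The lower counts are no larger a share than among all tested genes (36.6% and 40.8%). On the FPKM scale 6 were higher and 5 lower in both. Rgs18 was at 58.5 CPM in Ly6Ghi and 8.23 in NL (log2 fold change 2.83) and Rgs19 at 136 and 31 CPM (log2 fold change 2.14), whereas Grk3, at 64.5 CPM in NL, was lower in Ly6Ghi (log2 fold change -2.23). Median log2 fold changes against NL were 1.01 and 0.95 for the 13 genes and 1.65 and 2.02 for the neutrophil markers. The part of cell content in these differences was not tested.

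For each receptor, the genes with the most similar pattern were those with the smallest root mean square (RMS) difference of centred log2 CPM over the 9 libraries, among about 7397 genes with at least 10 CPM on average. Nearest to Cxcr2 were Zfp719 (RMS 0.05) and Asprv1 (0.06). Asprv1, a protease gene, was at 1393 CPM in Ly6Ghi, 2274 in Ly6Glow and 427 in NL. Cxcr1 had no gene as close, the nearest being Wfdc17 at 0.23, with 1125, 2549 and 223 CPM, and Ifitm1 at 0.26, with 1145, 2406 and 209.6 CPM. Nearest to Cxcr4 were Fmnl1, a formin of blood cells (0.04), and Ptk2b, a focal adhesion kinase relative (0.04). Trim30a (0.03) was nearest to Ccr1, Samhd1 (0.03) to Ccrl2, Gcc2 (0.05) to Ccr2, Trim44 (0.13) to Ccr7 and Tifa (0.14) to Cxcr3. Nearest to Cx3cr1 were Thbd at 0.09, with 30.6, 30.9 and 172 CPM, Pkd2 at 0.09 and Cd93 at 0.1, with 54.8, 51 and 263 CPM in Ly6Ghi, Ly6Glow and NL. Thbd encodes thrombomodulin of endothelium and Cd93 is expressed in endothelial and myeloid cells. These patterns rest on 3 groups of libraries and are given as a description.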

How the data were processed

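RNA from sorted neutrophils was prepared with TRIzol and made into strand-specific libraries read as 150 bp pairs. Tables deposited by the authors hold estimated counts without normalization and FPKM values, which the authors had divided by transcript length and sequencing depth. Per the labels the genome build was mm10, and the aligner and counter are not given in the sources used here. Of the estimated counts 37.9% were whole, and all were rounded.

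Counts were tested with edgeR 4.0.16 in R 4.3.3 (filterByExpr, TMM, quasi-likelihood F test over all 9 libraries and 14108 genes, Benjamini-Hochberg adjustment). The methods state DESeq2 with P of at most 0.05 and a log2 fold change above 0.58, and the same values were used here with an adjusted p. DESeq2 1.42.0 and limma 3.58.1 on log2(FPKM + 1) were alternatives. CPM values are TMM-scaled, and standard errors were derived from the log2 fold change and its F value. The Cxcr2 to Cxcr4 ratio was tested with a two-sided exact permutation test (SciPy 1.17.1). The count fits were tested on simulated data.

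All 9 members were named. For each gene list, up to 2 genes called higher and 2 called lower with the largest change and at least 10 CPM were examples, and the 3 genes nearest in pattern were found for each member. Gnai2, Cx3cl1, Rgs16, Ly6g, Csf1r, Chil3, Ear1 and Sftpc were named after their values were seen. Members and lists were chosen with earlier results of these data known.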

Additional observations from a re-analysis of the deposited data

How the results depend on the processing

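The number of receptors called stayed within 1.5 times of 6 between Ly6Ghi and NL under every alternative tried. Between Ly6Glow and Ly6Ghi it was 5, and it was 1 with a log2 fold change above 1, 2 with log2(FPKM + 1) with or without a minimum of 1 FPKM, and 3 with log2(FPKM + 0.1). Between Ly6Glow and NL it was 8, and it was 5 with a log2 fold change above 1, with at least 10 counts in every library (Cxcr3 had fewer and was not tested, and Ccr2 and Ccrl2 fell below the fold threshold at 0.42 and 0.50) and on each FPKM scale. Leaving out 1 library gave 5 to 6, 6 and 7 to 8 receptors in the order Ly6Glow vs Ly6Ghi, Ly6Ghi vs NL and Ly6Glow vs NL.

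Of 510 single-gene values under the alternatives, 457 kept direction and call, 21 lost the call, 7 gained it and 25 turned direction. On the FPKM scales with 1 and 0.1 added, Cxcr4 turned to -0.22 and -0.22 (Ly6Ghi vs NL) and -0.17 and -0.17 (Ly6Glow vs NL), Ccr1 to -0.11 (Ly6Ghi vs NL), Ccrl2 to -0.42 and -0.42 (Ly6Ghi vs NL) and -0.029 (Ly6Glow vs NL), and Ccr2 to -0.082 and -0.086 (Ly6Glow vs NL). Ccrl2 (Ly6Ghi vs NL) was also -0.14 with upper-quartile factors and -0.12 with at least 10 counts in every library. Between Ly6Glow and Ly6Ghi, Cx3cr1 was 0.009 with DESeq2 size factors, 0.008 with DESeq2 and -0.13 to 0.036 without 1 library each (above 0 without Ly6Ghi replicate 1), and Cxcr3 was -0.38 to 0.05 without 1 library each (above 0 without Ly6Ghi replicate 3 or Ly6Glow replicate 1). FPKM by construction leaves out the TMM factors of 0.803 to 1.32, and the cause of the other turns was not tested. The log2 ratio of Cxcr2 to Cxcr4 kept its direction under each alternative and ranged without 1 library from 0.35 to 0.40, 1.44 to 1.55 and 1.82 to 1.93 in the same order.

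The mean of each group was subtracted from the log2 CPM values, and the remaining deviations were correlated between libraries of different groups. Libraries with the same replicate number correlated at -0.25 to 0.10, and other pairs at -0.28 to 0.36. Of 9 libraries, 1 correlated best with its own number. Most replicates of a group differed little, so these values cannot decide whether equal numbers mean a shared mouse or batch. The methods state no pairing. With the replicate block the counts of calls were 5, 6 and 8, and the ratio differences were 0.38, 1.49 and 1.87 (exact sign-flip test p = 0.25, the smallest 3 pairs allow). At 8 to 17 counts, depth limits Cxcr3.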
